A study of Mus musculus with 9 samples.

Results

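Igfbp4, Tspan2, Nav2, Lrrc75b, Tmem176a and Tmem176b are 6 genes of 41388 in an RNA-Seq table of murine Tc17 cells, the CD8+ T cells that make IL-17. They were chosen by name because they were lower with dimethyl fumarate (DMF) than without it in these same libraries, so that their fall from Ctrl to DMF is a description, and no test of it is used as support. All 6 reached the minimum mean of 10 normalized counts over the 9 libraries and belonged to the 11599 genes tested. Naive CD62L+CD44- CD8+ T cells were sorted from lymph nodes and spleens of C57BL/6 mice of 8 to 12 weeks and primed for 48 h. All groups received plate-bound anti-CD3, anti-CD28, 50 U/ml IL-2, 0.5 ng/ml TGF-β, 30 ng/ml IL-6 and anti-IFN-γ, which is the Tc17 condition. Ctrl cultures received the solvent DMSO at 0.2%, DMF cultures 20 µM DMF, and DMF + GSH cultures 20 µM DMF with 50 µM reduced glutathione. Each group had 3 libraries, of which replicate 1 belongs to batch 1 and replicates 2 and 3 to batch 2. Nothing in the labels says that replicates came from separate animals, and the p-values then measure only the spread between these libraries.

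DMF is a fumaric acid ester that reacts with thiols such as the cysteine of glutathione (GSH), the main small antioxidant of the cell. The 6 genes belong to several protein families. Igfbp4 encodes a secreted protein that binds insulin-like growth factors and limits their access to the receptor. Tspan2 encodes a tetraspanin, a membrane protein that organizes other surface proteins into microdomains, and Nav2 encodes neuron navigator 2, a large cytoskeleton-associated protein known from axon growth. Lrrc75b encodes a protein with leucine-rich repeats. Tmem176a and Tmem176b encode related membrane proteins with a CD20-like fold that are known from dendritic cells and IL-17-producing lymphocytes.

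The libraries held 7671772 to 11589246 recovered reads in Ctrl, 10382638 to 12669991 with DMF and 9753478 to 14511926 with DMF + GSH, and Ctrl replicate 3 was the shallowest. Values are normalized counts, that is reads divided by a size factor of the library, and 1 read was worth 1.42 in Ctrl replicate 3. The summed CD8 T cell markers lay between 26791 and 35371 in all 9 libraries, and Cd4 reached at most 4.40. Cd8a made up 31.2% to 34.9% of that sum in Ctrl, 40.4% to 44.8% with DMF and 31.1% to 36.2% with DMF + GSH. Of the 7 markers 5 had a negative and 2 a positive log2 difference between DMF and Ctrl, from -0.53 (Cd3g) to 0.31 (Cd8a). None was called in either fit. Ctrl replicate 3 stood apart by some genes of macrophages. Lyz2 (lysozyme) was at 0, 4.64 and 119 in replicates 1, 2 and 3 of Ctrl, Csf1r at 0, 1.86 and 58.3 and Gpnmb at 3.12, 7.43 and 171, while all other libraries had at most 10.6, 5.83 and 17.4. Other macrophage markers differed less between these Ctrl replicates, Cd68 at 69.6, 69.7 and 82.5 and Cd14 at 2.08, 0.93 and 4.27. The summed list of 17 myeloid and dendritic markers lay between 848 and 1128 in Ctrl, between 857 and 926 with DMF and between 836 and 959 with DMF + GSH. Cst3, which many cell types express, made up 57.2% to 68.9% of it in 8 libraries and 46.0% in Ctrl replicate 3, which had the highest sum. Xcr1, a receptor of cross-presenting dendritic cells, was at 69.6, 69.7 and 55.5 in Ctrl but at 13.8, 14.6 and 16.5 with DMF, and at 67.1, 52.7 and 33.1 with DMF + GSH, and was called lower with DMF. H2-Ab1, of MHC class II, was at 19.7, 55.7 and 28.4 in Ctrl and at 9.52, 15.4 and 9.68 under DMF. It was called lower with the replicate block (log2 -1.41, limma p adj = 0.00132), but not with the batch term (p adj = 0.0228). The integrin Itgax was at 7.28, 15.8 and 7.11 in Ctrl and at 4.23, 2.57 and 5.81 under DMF and was not tested. Cd74 had means of 159 and 184 and was not called. The dendritic marker Zbtb46 had means of 5.76 and 7.94 and was not tested, and Clec9a, another one, reached at most 1.10. Of the 6 tested markers 4 had a negative and 2 a positive log2 difference between DMF and Ctrl. Of the 6 tested markers of this list, Xcr1 alone was called lower in the batch fit, against 1.67% of all genes. The block added H2-Ab1, which makes 2 of the 6 against 4.28%, and 0 were called higher in either fit. The summed epithelial markers were 72.8 to 88.2 in Ctrl, 198 to 341 with DMF and 83.2 to 155 with DMF + GSH, nearly all of it Epcam, and Krt8 was at 0 throughout. The summed 6 stromal markers were low but moved in the direction of the 6 genes, at 18.5 to 22.9 in Ctrl, 2.90 to 12.7 with DMF and 14.1 to 23.3 with DMF + GSH, so that the DMF libraries lay below all others. Most of this sum was Col1a1, the only one tested, which was called in neither fit (log2 -1.17, limma p adj = 0.0660, and 0.0248 under the block). The part of these markers in the results was not tested, and in bulk RNA fewer expressing cells cannot be told apart from less RNA per cell.

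The genes lie on 5 chromosomes of GRCm38. Igfbp4 (ENSMUSG00000017493) is at chr11:99041244-99054392 and Tspan2 (ENSMUSG00000027858) at chr3:102734529-102801513, both on the forward strand. Nav2 (ENSMUSG00000052512) spans chr7:48908716-49610090 on the forward strand, and its 18 annotated transcripts have a union of exons of 32228 bp, so that counts per gene do not tell its long from its short forms. Lrrc75b (ENSMUSG00000046807) is at chr10:75550123-75560330 on the reverse strand. Tmem176a (ENSMUSG00000023367, forward strand, chr6:48840919-48847071) and Tmem176b (ENSMUSG00000029810, reverse strand, chr6:48833818-48841496) overlap head to head and share 81 bp of exons. The sources do not state whether the counting used strand, so that reads in this overlap cannot be assigned to either gene.

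The bases before the start sites are shown for Igfbp4 and Nav2, the most abundant of the genes and one of those with the deepest falls, because they differ in their basic promoter elements. They are RefSeq sequences of GRCm38.p6, 250 bases up to the base before the start site on the forward strand, and capitals mark a TATA box (TATAAA) or a CCAAT box (CCAAT, or ATTGG on the other strand).
Igfbp4, chr11:99040994-99041243: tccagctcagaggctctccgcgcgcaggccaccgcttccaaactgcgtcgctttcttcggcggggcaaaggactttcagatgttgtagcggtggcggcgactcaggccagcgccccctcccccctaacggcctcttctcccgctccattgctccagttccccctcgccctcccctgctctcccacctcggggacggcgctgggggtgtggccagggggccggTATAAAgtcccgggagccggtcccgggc
Nav2, upstream start, chr7:48958823-48959072: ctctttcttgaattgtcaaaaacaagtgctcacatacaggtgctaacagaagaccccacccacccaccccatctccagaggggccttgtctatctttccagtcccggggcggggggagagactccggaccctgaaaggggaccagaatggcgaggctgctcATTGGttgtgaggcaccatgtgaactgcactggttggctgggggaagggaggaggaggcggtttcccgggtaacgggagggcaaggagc
Nav2, downstream start, chr7:49245939-49246188: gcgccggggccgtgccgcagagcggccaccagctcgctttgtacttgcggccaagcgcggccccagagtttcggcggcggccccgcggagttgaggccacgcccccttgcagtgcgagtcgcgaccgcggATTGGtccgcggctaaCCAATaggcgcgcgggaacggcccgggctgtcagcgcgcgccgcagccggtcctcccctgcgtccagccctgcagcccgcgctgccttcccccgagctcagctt

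The TATAAA of Igfbp4 begins 28 bases before its start site, and this motif is in 13.6% of all 32851 RefSeq windows of 300 bases (250 before and 50 after the start) and in 6.53% of the windows of genes tested here. Both Nav2 windows hold a CCAAT box, as do 37.4% of all windows and 38.1% of those of tested genes, and the downstream one holds it on both strands. These elements were searched for after the sequences had been read. None of the 10 windows of 5 of the genes held AGGTCA (nuclear receptor element, in 16.3% of all windows), GTAAACA (forkhead, 3.65%), TGACNNNGC (core of the antioxidant response element, 12.4%), GGTGTGA (T-box element, 3.98%), TTCNNNGAA (STAT, 8.30%) or TGANTCA (AP-1, 7.81%), searched on both strands. In the windows of tested genes these shares were, in the same order, 12.1%, 2.44%, 14.7%, 3.30%, 6.96% and 4.68%. This says only that these letters are not in these windows. The windows of Tmem176a and Tmem176b overlap, their closest RefSeq start sites being 109 bp apart, so that they are not independent. The GC content of the 250 bases lay between 56.4% and 74.4% in the 10 windows, against a median of 52.4% over all windows. Lrrc75b has no window in the table.

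Igfbp4 was by far the most abundant of the genes. In the order of replicates 1, 2 and 3, which holds for all values that follow, Ctrl had 10639, 7441 and 6608 normalized counts, DMF 4806, 3125 and 3103, and DMF + GSH 7589, 6624 and 5869. Every DMF library was below every other library. The mean with DMF was 44.7% of that in Ctrl, and by replicate number the remaining level was 45.2%, 42.0% and 47.0%, the narrowest spread among the 6 genes. The log2 difference was -1.16. At a mean of 6201 over the 9 libraries Igfbp4 ranked 193 of the 11599 genes by level, and 222 by the size of its fall.

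Tspan2 was at 279, 415 and 347 in Ctrl, under DMF at 51.8, 149 and 98.7, and under DMF + GSH at 270, 379 and 319. The DMF libraries lay apart from the others, and replicate 1 was the lowest and replicate 2 the highest in each of the 3 groups. DMF left 18.6%, 35.9% and 28.5% of the Ctrl level in replicates 1, 2 and 3, a log2 difference of -1.89.

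Nav2 and Lrrc75b had the deepest mean falls of the 6 genes, at ranks 6 and 8 of 11599. It was at 511, 654 and 310 in Ctrl, under DMF at 42.3, 92.5 and 43.6, and under DMF + GSH at 386, 513 and 273. DMF left 12.1% of the Ctrl mean, a log2 difference of -3.06, with -3.56, -2.81 and -2.80 by replicate number. Lrrc75b had 93.5, 69.7 and 39.8 in Ctrl, under DMF 16.9, 5.14 and 4.84, and under DMF + GSH 63.8, 55.7 and 25.3. Its DMF values rest on 16, 6 and 5 reads, and 5 reads have an exact 95% Poisson interval from 1.62 to 11.7 that covers counting error only. The log2 difference of Lrrc75b was -2.91, with -2.40, -3.53 and -2.81 by replicate number. Nav2 fell more than Lrrc75b only in replicate 1, and without DMF replicate 1 the order turned, with -3.18 for Lrrc75b and -2.83 for Nav2.

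The Tmem176 genes were near the limit of what was tested. Tmem176a was at 39.5, 33.4 and 14.2 in Ctrl, under DMF at 10.6, 10.3 and 4.84, and under DMF + GSH at 22, 29.0 and 24.3. Tmem176b was at 44.7, 23.2 and 14.2 in Ctrl, under DMF at 13.8, 16.3 and 4.84, and under DMF + GSH at 25.3, 24.5 and 30.1. The groups Ctrl and DMF did not overlap for Tmem176a but did for Tmem176b, whose DMF replicate 2 lay above Ctrl replicate 3. Within each replicate number both genes were lower with DMF. In Ctrl replicate 3, the library with the most Lyz2, Csf1r and Gpnmb, both were lower than in the other Ctrl libraries. The log2 differences were -1.60 and -1.17, and without Ctrl replicate 3 they were -2.01 and -1.47. Without DMF replicate 3 they were -1.31 and -0.74, so that Tmem176b was then under the size of 0.75 used for calls. Tmem176a took 51.9% of the reads of the pair in Ctrl (84 of 162, 95% Wilson interval 44.2% to 59.4%), 42.2% with DMF (30.9% to 54.4%) and 49.1% with DMF + GSH (41.7% to 56.6%). These intervals pool the reads of 3 libraries and cover counting error only, and the share ranged from 46.9% to 59.0% between the Ctrl libraries, so that no change in the ratio of both genes is read from them.

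**Figure D1:**
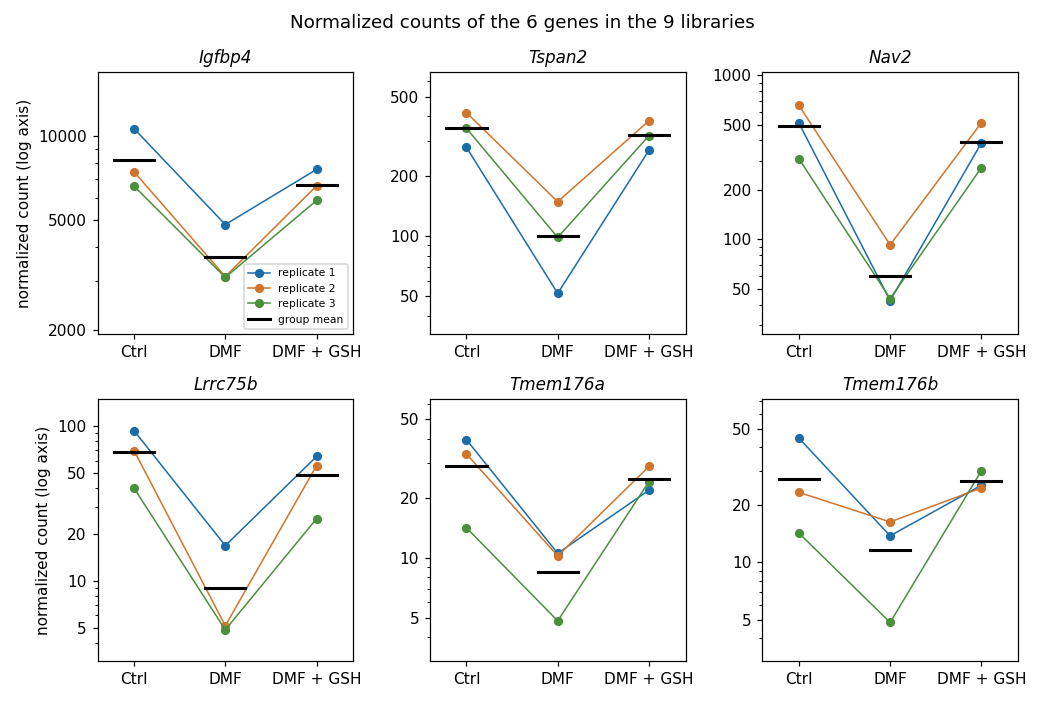
Normalized counts of the 6 genes (log axis, one panel per gene) in Ctrl, DMF and DMF + GSH. Points are libraries, lines join libraries with the same replicate number and black bars are group means; in every panel the DMF mean is the lowest, and only for Tmem176b does a DMF library (16.3) lie above a Ctrl library (14.2).

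A gene was called when its adjusted p (p adj, limma, Benjamini-Hochberg over 11599 genes) was under 0.01 and its absolute log2 difference at least 0.75. Between DMF and Ctrl 4 of the 6 genes were called lower, against 1.67% of all genes tested, and with a block for the replicate number replacing the batch term 5 were, against 4.28%. Ctrl and DMF did not overlap for 5 of them, against 19.8% of all genes in this direction. Since this contrast chose the genes, nothing is read from these counts. Without Ctrl replicate 3 the log2 differences of Igfbp4, Tspan2, Nav2 and Lrrc75b were -1.23, -2.01, -3.41 and -3.08.

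Levels between genes are compared per kb of exon, the length being the union of exons of all annotated transcripts. Which transcripts were made was not tested, so that orders per kb rest on these lengths. In Ctrl Igfbp4 stood at 1864 ± 482 normalized counts per kb (SD, n = 3), followed by Tspan2 at 73.0 ± 14.4. Nav2 at 15.3 ± 5.36, Lrrc75b at 14.7 ± 5.85, Tmem176b at 11.5 ± 6.6 and Tmem176a at 7.63 ± 3.46 overlapped in mean ± SD with their neighbours in this order. With DMF Igfbp4 (833 ± 221) and Tspan2 (21.0 ± 10.2) were still the highest, Tmem176b came next at 4.90 ± 2.53 and Tmem176a, Lrrc75b and Nav2 lay at 2.25 ± 0.85, 1.95 ± 1.5 and 1.84 ± 0.89. Although the last 4 overlapped in mean ± SD with their neighbours in the order, Tmem176b was above Tmem176a, Lrrc75b and Nav2 in each DMF library, at 5.80, 6.86 and 2.04. Tmem176b was above Tmem176a in all 9 libraries. With DMF + GSH the order was that of Igfbp4 (1516 ± 195), Tspan2 (67.8 ± 11.5), Nav2 (12.1 ± 3.72), Tmem176b (11.2 ± 1.29), Lrrc75b (10.5 ± 4.41) and Tmem176a (6.59 ± 0.93), of which Nav2, Tmem176b and Lrrc75b lay within 1 SD of each other.

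The comparison of DMF + GSH with DMF asks whether the genes were higher when glutathione was supplied with the drug. It shares its DMF libraries with the contrast that chose the genes, which alone favours a difference in this direction. All 6 genes were higher with DMF + GSH than with DMF in all 3 replicate numbers, and the groups did not overlap for any of them, against 17.8% of all genes in this direction. In limma with the batch term 4 of the 6 were called, against 0.267% of all genes tested called higher. Igfbp4 was higher by 0.89 on the log2 scale (95% interval 0.68 to 1.09, p adj = 0.00433), Tspan2 by 1.79 (1.33 to 2.26, p adj = 0.00547), Nav2 by 2.75 (1.95 to 3.54, p adj = 0.00646) and Lrrc75b by 2.41 (1.64 to 3.18, p adj = 0.00779). Tmem176a was at 1.51 (0.61 to 2.4, p adj = 0.0278) and Tmem176b at 1.27 (0.29 to 2.25, p adj = 0.0621). With the replicate block both were called (p adj = 0.000964 and 0.00800, limma), which makes 6 of 6 against 3.28% of all genes. Without the batch term Nav2 alone was called, and with only the 6 libraries compared 0 of the 6. Of all 11599 genes these fits called 28 and 5 in either direction. The calls with the batch term depended on single libraries, for all genes as for these 6. Of the 6, 0 were called without Ctrl replicate 1, DMF replicate 1, DMF replicate 3, DMF + GSH replicate 1 or DMF + GSH replicate 2. In the same order these fits called 7, 4, 0, 0 and 0 of all 11599 genes. All 6 kept their direction. With the replicate block 4 to 6 remained called without any 1 library, Igfbp4, Tspan2, Nav2 and Lrrc75b in all 9 fits. Of all genes these fits called 404 to 728.

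**Figure D2:**
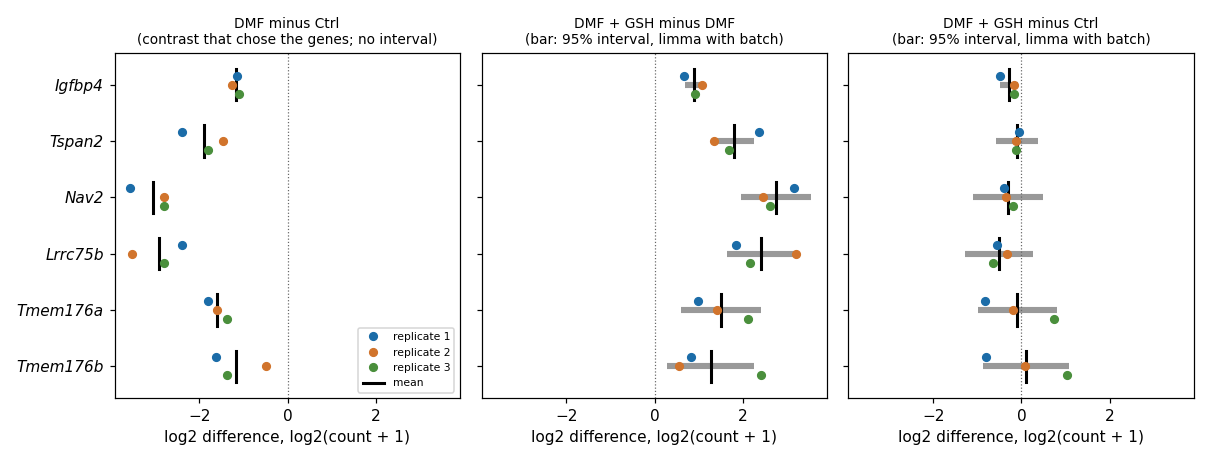
Log2 differences, on log2(normalized count + 1), of the 6 genes in the 3 contrasts. Points are differences between libraries with the same replicate number, black marks their means and grey bars the 95% interval of limma with the batch term, left out for the contrast that chose the genes; the differences of DMF + GSH against Ctrl lie between -0.82 and 1.03, and those of DMF + GSH against DMF are all above 0.

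DMF + GSH was also set against Ctrl, a comparison that shares its Ctrl libraries with the contrast that chose the genes, which alone favours values below Ctrl. Here 0 of the 6 genes were called in limma, as were 0% of all genes tested. Before adjustment Igfbp4 alone was under 0.05, as were 222 of all 11599 genes. In edgeR and DESeq2 on the recovered reads 0 of the 6 were called as well, and Igfbp4 alone was again under 0.05 before adjustment. Of all genes 213 and 100 were. With the replicate block 0 of the 6 were called, against 0.00862% of all genes. There Igfbp4 and Nav2 were under 0.05 before adjustment, as were 599 of all 11599 genes. The groups overlapped for all 6, while they lay apart for 2.39% of all genes in the lower and 2.08% in the higher direction. Igfbp4 with DMF + GSH was at 71.3%, 89.0% and 88.8% of Ctrl in replicates 1, 2 and 3, a log2 difference of -0.28 (95% interval -0.48 to -0.07, p adj = 1.0), and with the replicate block its p adj was 0.216. Tspan2 had the smallest spread between replicate numbers, at 96.8%, 91.2% and 91.9% of Ctrl and a log2 difference of -0.10 (-0.57 to 0.36). Nav2 was at 75.5%, 78.4% and 88.1% (log2 -0.31, -1.11 to 0.48) and Lrrc75b at 68.2%, 79.9% and 63.5% (log2 -0.50, -1.27 to 0.27).

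Tmem176a and Tmem176b had no common direction against Ctrl. In replicates 1, 2 and 3 Tmem176a with DMF + GSH was at 55.7%, 86.6% and 171% of Ctrl and Tmem176b at 56.6%, 105% and 212%, with log2 differences of -0.09 (-0.99 to 0.80) and 0.10 (-0.88 to 1.08). The high ratios belong to replicate 3, in which the Ctrl library had 10 reads of either gene. With the batch term the intervals of Nav2, Lrrc75b, Tmem176a and Tmem176b reach past 0.75 in size, whereas those of Igfbp4 and Tspan2 end short of it. With the replicate block the interval of Nav2 was narrower and lay below 0, from -0.59 to -0.03 (limma p adj = 0.870), and those of Lrrc75b (-1.07 to 0.07), Tmem176a (-0.77 to 0.58) and Tmem176b (-0.65 to 0.85) still reached past 0.75.

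The 9 libraries also order the genes among themselves. Pearson correlations of the log2 values over the 9 libraries are given as a description, since the libraries share the 3 groups, the replicate numbers and their depth. Igfbp4 and Lrrc75b were close (r = 0.981), each among the 5 genes most like the other of 11599, and their deviations from the group means correlated with r = 0.914, a measure that keeps what libraries of one replicate number share. With the means of the replicate numbers subtracted too, r was 0.666, at ranks 1273 and 1652 of 11599. Both were highest in replicate 1 of each group. Tspan2 went the other way and was lowest in replicate 1 of each group, with a correlation of deviations of -0.77 with Igfbp4, and of -0.67 with the replicate numbers subtracted too. Tspan2 was closer to Nav2, with r = 0.941 over the libraries, 0.599 for the deviations from the group means and 0.925 with the replicate numbers subtracted too. Tmem176a and Tmem176b correlated with r = 0.932, with 0.887 after subtraction of the group means and with 0.837 after that of the replicate numbers as well.

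Of the 3 genes most like each member over the 9 libraries, those other than Lrrc75b had log2 differences between DMF and Ctrl from -1.25 (Plin2) to -0.13 (Acadl). They were Gltscr1 (r = 0.989), Lrrc75b and Ccser2 (0.979) for Igfbp4, and Plin2 (0.989), a lipid droplet protein, Gdi2 (0.981) and Mapk3 (0.981), the kinase ERK1, for Tspan2. For Nav2 they were Ncapd2 (0.994), a condensin subunit, Hjurp (0.994) and Atp2a3 (0.993), for Lrrc75b Ccser2 (0.988), Prkdc (0.984) and Cit (0.984), for Tmem176a Tle2 (0.982), Abl1 (0.976) and Ccdc157 (0.976), and for Tmem176b Ankle1 (0.968), Naaa (0.965) and Acadl (0.941). Ncapd2, the gene most like Nav2, had a log2 difference of -0.44 between DMF and Ctrl, against -3.06 of Nav2. Il17a, the cytokine that names these cells, stood sixth for Tspan2 (r = 0.974). After subtraction of the means of groups and replicate numbers the closest were Klc3 and Gde1 for Igfbp4, Gcfc2 and Srd5a1 for Tspan2, Cecr5 and Tmem173 for Nav2, Gimap5 and Nop9 for Lrrc75b, Mrpl55 and Swi5 for Tmem176a, and Cox6b2 and Uchl1 for Tmem176b. Few degrees of freedom are left there, so that such values are high for many genes.

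Tetraspanins are a large family of surface proteins in T cells. Besides Tspan2 there were 30 in the data, of which 17 were tested. With the batch term 1 was called higher with DMF, against 1.22% of all genes, and 0 lower, against 1.67%. The higher one was Tspan4, from 105, 101.3 and 107 in Ctrl to 233, 203 and 239 under DMF, and DMF + GSH had 81.4, 84.6 and 133. Its log2 difference between DMF and Ctrl was 1.10 (p adj = 0.00638, limma), and the call was lost without Ctrl replicate 1 or 2, DMF replicate 1 or 3 or DMF + GSH replicate 1 (p adj up to 0.0572), but not with the replicate block without any 1 library. The abundant members of the family, Cd53 at a mean of 4919, Tspan13 at 1908 and Cd82 at 1540.5, had log2 differences of -0.49, -0.31 and 0.28. They were not called, being under the size of 0.75, with limma p adj of 2.48e-06, 0.000899 and 0.0004 under the block. With the replicate block Tspan32, which restrains T cell activation, was called lower as well (log2 -0.75, p adj = 6.41e-05, against 0.0168 with the batch term), a size close to the threshold of 0.75. That made 1 of the 17 called lower under the block, against 4.28% of all genes. The call of Tspan32 was lost without Ctrl replicate 1 (log2 -0.65) or DMF replicate 1 (-0.57). The median log2 difference of the 17 tetraspanins other than Tspan2 was -0.24, against 0.01 over all genes.

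Of the insulin-like growth factor system 21 genes other than Igfbp4 were in the data and 5 tested. In limma with the batch term 0 of these were called, against 1.22% of all genes higher and 1.67% lower. An unadjusted p under 0.05 was found for 2 of the 5, and for 4811 of all 11599 genes. Under the block 1 was called lower, against 4.28%. The receptor Igf1r was at 560, 617 and 374 in Ctrl, under DMF at 278, 335 and 256, and under DMF + GSH at 393, 496 and 385. Its log2 difference was -0.81 with p adj = 0.0144 in limma with the batch term, and it was called with the replicate block (p adj = 1.91e-06), but not without Ctrl replicate 1, where the log2 difference was -0.70. The insulin receptor Insr had a log2 difference of -0.47, and Igf2r, the most abundant after Igfbp4 at a mean of 4569, one of -0.07. Irs2, an adaptor of these receptors, had one of 0.06. The ligands and the protease were hardly read, Igf1 with 14, Igf2 with 7 and Pappa, which cleaves IGFBP4, with 2 reads over all 9 libraries. Igfbp1 and Igfbp3 had 0 reads, and Igfbp4 was the only IGF-binding protein gene with a mean of at least 10.

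The CD20-like list holds the Ms4a genes and the Tmem176 pair. Without the pair 19 genes were in the data and 6 tested. Between DMF and Ctrl 0 of these were called with the batch term, against 1.22% of all genes higher and 1.67% lower. An unadjusted limma p under 0.05 was found for 3 of the 6, and for 4811 of all 11599 genes. The median log2 difference of the 6 was -0.82, against 0.01 over all genes. Under the block 3 of the 6 were called lower, against 4.28% of all genes. Of these 3, Ms4a4d lost its call without Ctrl replicate 1 or DMF replicate 1 (limma p adj = 0.0259 and 0.0101), and Ms4a6b and Ms4a6c kept theirs without any 1 library. Ms4a6b, one of the abundant Ms4a genes of T cells, was at 4213, 4137 and 2548 in Ctrl, under DMF at 2089, 2442 and 1159, and under DMF + GSH at 4539, 4030 and 2294. Its log2 difference was -0.97 (limma p adj = 0.0322, and 5.32e-09 under the replicate block). Ms4a6c (log2 -1.24, p adj = 0.0279 and 2.94e-05) and Ms4a4d (log2 -1.76, p adj = 0.0225 and 0.00138) were the others. Ms4a genes are close copies of each other, and the sources do not state how reads that match several of them were counted. Ms4a4b at a mean of 2224 had a log2 difference of -0.67 and was called in neither fit. The homologue of Lrrc75b, Lrrc75a, was at 27.6 ± 6.37 in Ctrl and 29.1 ± 2.37 with DMF (log2 0.10, p adj = 0.799), and of the navigator genes Nav2 alone was tested, Nav1 and Nav3 having means under 10.

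**Figure D3:**
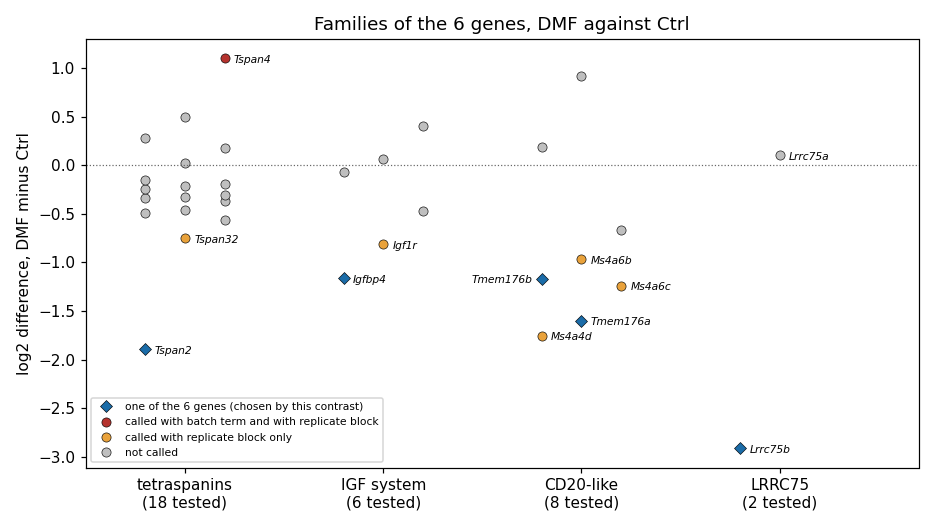
Log2 difference between DMF and Ctrl of every tested gene of 4 families (tetraspanins, IGF system, CD20-like and LRRC75). Blue diamonds are those of the 6 genes that belong to a family shown, red points were called with the batch term and with the replicate block, orange ones with the replicate block only and grey ones in neither fit; Tspan2 (-1.89) and Tspan4 (1.10) lie at opposite ends of their family, and 4 of the 6 Ms4a genes lie below 0.

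The neighbourhood of the genes was examined over all annotated genes whose start site lies within 200 kb of theirs. Of 44 such genes in the table other than the 6 themselves, 26 were tested, 0 were called higher and 2 lower with DMF, Ggt1 and Tns4, against 1.67% of all genes. With the replicate block 5 were called lower, against 4.28%. The median log2 difference of the 26 was -0.39, against 0.01 over all genes.

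Ggt1 is the neighbour of Lrrc75b in a divergent arrangement, on the forward strand at chr10:75561604-75586200, its annotated start at -1274 bp, that is upstream, of that of Lrrc75b. It encodes γ-glutamyltransferase 1, the enzyme of the cell surface that starts the breakdown of extracellular glutathione. Ggt1 was at 378, 239 and 85.3 in Ctrl, under DMF at 42.3, 38.5 and 16.5, and under DMF + GSH at 218, 128 and 52.5. The DMF libraries were below all others, and in each group Ggt1 was highest in replicate 1 and lowest in replicate 3, an order that Lrrc75b showed too. Its log2 difference between DMF and Ctrl was -2.68 (95% interval -3.69 to -1.67, p adj = 0.00642, limma). Against DMF, DMF + GSH was higher by 1.89 (limma p adj = 0.0193, and 1.08e-07 under the replicate block, where it was called). Against Ctrl, DMF + GSH was at -0.79 (-1.80 to 0.22 with the batch term) and lower in each replicate number. It was not called there, with a limma p adj of 0.122 under the replicate block. Over the 9 libraries Ggt1 and Lrrc75b correlated with r = 0.935, which was rank 146 among the genes tested for Lrrc75b, their deviations from the group means with r = 0.816 (rank 434), and after subtraction of the means of groups and replicate numbers the sign turned (r = -0.56).

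Ggt5, a second γ-glutamyltransferase gene that follows Ggt1 on the same strand at chr10:75589340-75617200, was lower as well, at 39.5, 32.5 and 9.95 in Ctrl and 7.41, 11.1 and 8.71 with DMF. Its log2 difference was -1.30 (limma p adj = 0.0642, and 0.00625 under the replicate block). Gucd1 (log2 -0.77, limma p adj = 0.0104) and Upb1 (log2 -0.94, p adj = 0.0356) were not called with the batch term but were with the block (p adj = 4.88e-07 and 0.00699). Among the 11 alternatives that left out no single library, the block included, 5 called Gucd1. Of 10 such alternatives the block alone called Upb1. Without 1 library, 4 of the 9 fits with the batch term called Gucd1 and 0 called Upb1. Snrpd3, a splicing factor gene, had a log2 difference of 0.55 in the opposite direction (p adj = 0.00640, below the fold that counts as called). So 4 of the 6 tested neighbours of Lrrc75b were called lower with the block, against 4.28% of all genes, and 1 with the batch term, against 1.67%. When 1 library was left out under the block, Ggt5 was called in 5 of 9 fits (p adj up to 0.0791), Upb1 in 4 (p adj up to 0.0575) and Gucd1 in 7. The calls were lost for Ggt5 without Ctrl replicate 1 or 2 or DMF replicate 1 or 2, for Gucd1 without Ctrl replicate 1 or DMF replicate 1, and for Upb1 without Ctrl replicate 1 or 3, DMF replicate 1 or 3 or DMF + GSH replicate 2.

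Next to Igfbp4, 1 of 8 tested neighbours was called lower with DMF, against 1.67% of all genes. Under the block it was the same gene alone, against 4.28%. This gene, Tns4, encodes the adhesion protein tensin 4 at chr11:99065678-99089306 on the reverse strand. Tns4 was at 47.8, 33.4 and 24.2 in Ctrl, under DMF at 10.6, 6.85 and 10.6, and under DMF + GSH at 27.5, 26.7 and 14.6, a log2 difference between DMF and Ctrl of -1.77 (p adj = 0.00666, limma). The abundant neighbours Top2a (mean 20653, log2 -0.44), Ccr7 (4629.7, log2 -0.54) and Cdc6 (1387, log2 0.22) were not called, being below the fold that counts as called. Top2a had a limma p adj of 0.00933 with the batch term. Under the block the limma p adj of the 3 genes were 2.37e-06, 6.68e-07 and 0.0061. The 2 tested neighbours of Nav2, Zdhhc13 and E2f8, had log2 differences of 0.02 and -0.18, and none of the neighbours of Tspan2 was tested. Around the Tmem176 pair lie the Gimap genes, GTPases of lymphocyte survival, and none of the 10 tested neighbours of the pair was called in either fit. The most abundant were Gimap4 (4694, log2 -0.52), Gimap6 (2469, log2 -0.47) and Gimap8 (1432, log2 -0.32), below the fold that counts as called. Under the block their limma p adj were 8.02e-07, 1.08e-05 and 0.000397. With the batch term the calls of Ggt1 and Tns4 were lost without Ctrl replicate 1 or 2 or DMF replicate 1 or 3 and without DMF + GSH replicate 1 (p adj up to 0.0572), that of Ggt1 also without a batch term (p adj = 0.0123), both with only the 6 libraries compared (p adj = 0.0123 for Ggt1 and 0.0131 for Tns4), and with the block they held without any 1 library.

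**Figure D4:**
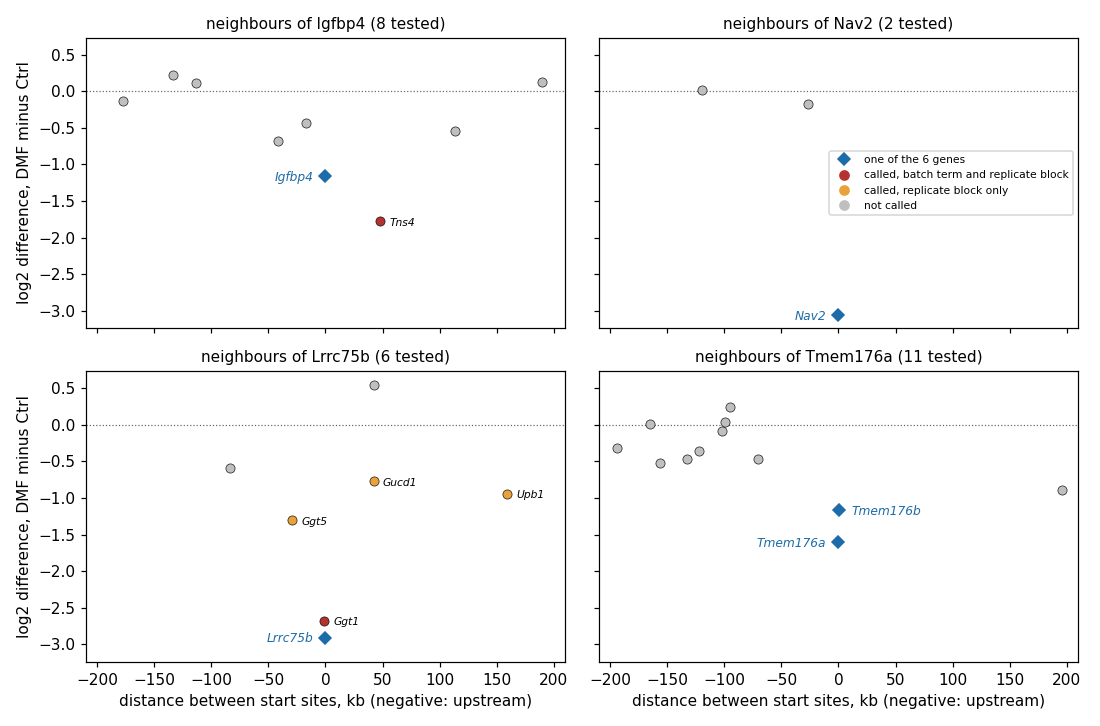
Log2 difference between DMF and Ctrl of the tested genes whose start site lies within 200 kb of that of Igfbp4, Nav2, Lrrc75b or Tmem176a, by the distance between the start sites in kb. Blue diamonds are those of the 6 genes that lie in a window shown, red points were called in both fits, orange ones with the replicate block only and grey ones in neither; Ggt1 (-2.68) lies beside Lrrc75b (-2.91), while both neighbours of Nav2 lie near 0.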

How the data were processed

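RNA-Seq of murine Tc17 cells covered 9 poly(A) libraries, 3 in each group, with groups, replicate numbers and batches from the sample labels. The authors aligned single reads of 50 bp to GRCm38 with STAR 2.4.0b (submitters' processing notes), counted them with featureCounts and deposited normalized counts, a signal per gene made of reads divided by a size factor of each library. The deposited table also holds the authors' own DESeq2 comparison of Ctrl and DMF (log2 fold change, a test score called stat, p-value and adjusted p), which was not used. Reads were recovered as whole multiples of each library's smallest step, and 100% of the nonzero values came out whole (within 0.01).

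The main test was limma-trend (limma 3.58.1, R 4.3.3) on log2(normalized count + 1) of all 9 libraries with group and batch, over genes with a mean of at least 10. Low genes have understated fold changes on this scale. A count test with edgeR had been foreseen for raw counts only, so edgeR 4.0.16 and DESeq2 1.42.0 were run on the recovered reads as alternatives. The others were TMM or quantile scaling, pseudocounts of 0.5 and 4, no minimum or one of 50, no batch term, only the 6 libraries compared, the replicate block and each library left out in turn. The tests were checked on simulated counts, and no result of that check is used here.

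Deviations from the group means correlated between libraries that carry one replicate number (r = 0.447 to 0.578 over genes in all 9 pairs, against -0.471 to -0.0621 in the 18 others), and the labels give the number and its batch. Values under the block stand beside results whose call it alters. The 6 genes, the families, the markers and the motifs were chosen with earlier results of these data known. Besides the 6 genes, the text names every gene of the family and neighbour lists that was called with the batch term, the 3 most abundant of each list, the 3 genes most like each member and the 2 most like it in the residuals; genes called with the block only, Insr, Irs2, the IGF ligands and Pappa, Gpnmb, Il17a and Snrpd3 were added after their values were seen. Positions come from GENCODE vM21, in which 40254 of 41388 identifiers were found, and start sites of promoters from RefSeq. Of the 6 genes, 5 had a promoter window. Figures were made with Matplotlib 3.10.9.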

Additional observations from a re-analysis of the deposited data

How the results depend on the processing

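Between DMF and Ctrl 335 genes were called with the batch term, 789 with the replicate block, 43 with only the 6 libraries compared, 554 with DESeq2 and 338 with edgeR, and leaving out 1 library gave 2 to 865 (with the batch term or the block, as in all such ranges here). Between DMF + GSH and DMF the number was 63, with 660 under the replicate block, 273 with no minimum, 28 without the batch term, 5 with only 6 libraries, 384 with DESeq2, and 0 to 728 without 1 library. Between DMF + GSH and Ctrl 0 genes were called (222 at an unadjusted p under 0.05 in limma, 213 in edgeR, 100 in DESeq2), 1 with the replicate block (Serpinb1a) and 0 to 5 without 1 library. Of the 6 genes, 4 were called between DMF + GSH and DMF, 1 without the batch term (Nav2), 0 with only 6 libraries, 3 with edgeR (Lrrc75b at p adj = 0.0102), and 0 to 6 without 1 library, where the widest p adj was 0.220 for Tmem176b. The replicate block raised the calls lower with DMF from 0 to 1 among the other tetraspanins and among the other genes of the IGF system, from 0 to 3 among the other CD20-like genes and from 2 to 5 among the neighbours. The cause of these shifts was not tested, except that fewer libraries were fitted where some were left out.

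The difference of each of the 6 genes kept its direction under every alternative for DMF against Ctrl and for DMF + GSH against DMF. Against Ctrl, DMF + GSH turned direction without 1 library for Tspan2 (-0.25 to 0.023), Tmem176a (-0.50 to 0.21) and Tmem176b (-0.41 to 0.44). A minimum of 50 leaves Lrrc75b, Tmem176a and Tmem176b untested. Depth limits Lrrc75b and the Tmem176 genes, which had 5 to 19 reads in each DMF library.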
